A study of Mus musculus with 9 samples.

Results

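Chondrocytes stimulated with interleukin-1β (IL-1β) alone were compared with control chondrocytes, 3 libraries in each group, which are 6 of the 9 libraries of the series. The genes described are those with enough counts by group to be tested, 15502 of 56748 in the count table, and the emphasis lies on programmes other than the cytokines and matrix genes for which IL-1β is best known. The cells were primary chondrocytes from wild-type mice, freed from knee joint cartilage by collagenase and grown in serum-containing medium. Control cells received no stimulus that the labels name, and the other group received IL-1β with neither dose nor duration given; the remaining 3 libraries, from cells given IL-1β with recombinant SFRP5, entered the low-count filter, the scaling and the estimate of the spread between libraries, but not the contrast. Nothing in the labels says that libraries of a group came from separate animals or cultures, so every p-value rests on the spread among the libraries at hand, and this spread may be purely technical.

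IL-1β is a cytokine made mainly by activated macrophages and, in a damaged joint, also by cells of the joint itself. Its receptor passes the signal through the adaptor MyD88 and the kinase TAK1 to the NF-κB transcription factors and to the stress-activated MAP kinases, which switch on AP-1 factors. In cartilage it is known for shifting chondrocytes from building matrix to breaking it down, and the same pathways also reach genes for metabolism, growth control and cell communication.

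The libraries matched their labels at the 5 genes that mark the response. Mmp3, which encodes the protease stromelysin-1, stood at 1.31, 1.94 and 2.23 CPM (counts scaled to a common library size, with library composition allowed for) in the control libraries and at 33212, 33934 and 34687 CPM with IL-1β. The inducible nitric oxide synthase gene Nos2 was at most 0.101 CPM in control cells and at least 2389 CPM with IL-1β, and the acute phase gene Saa3 at most 0.863 and at least 12417 CPM. Acan, for the proteoglycan aggrecan, and Col2a1, for the main cartilage collagen, were both abundant in control cells, at 9664 and 74496 CPM, and lower by 15.5-fold and 4.84-fold with IL-1β. No library overlapped with the other group at any of the 5 genes.

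Total counts ranged from 17960438 to 20107339 in control libraries and from 17833535 to 18717286 with IL-1β, so that 3 counts in 1 library equalled 0.135 to 0.182 scaled CPM. Log2 levels correlated across genes, which are not independent replicates, with r of 0.99 to 0.992 within a group and 0.803 to 0.806 between the groups. Neutrophil, lymphocyte and erythroid markers were low or absent. In the 6 libraries 6 of 11 neutrophil markers had no count: S100a9, Ly6g, Ngp, Ltf, Retnlg and Csf3r. The same held for 10 of 13 lymphocyte and erythroid markers. Summed over a list, and scaled to library size alone, macrophage markers went from between 39.3 and 43.8 to between 72.3 and 77.4 CPM. Of 18, 8 were testable: Cd14, Cd68, Csf1r, Mrc1 and Mertk rose, Laptm5 fell and 2 were not called. The defining genes Ptprc, Adgre1, Itgam and Tyrobp had too few counts to test. So had C1qa, C1qb and C1qc, with 19, 21 and 23 counts in control and 5, 2 and 8 with IL-1β. Cd14 alone went from 1.26, 1.26 and 1.22 to 28.9, 25.8 and 27.5 CPM, and the call for Csf1r was lost without control replicate 1 or 2 or IL-1β replicate 1 or 3, and also with the replicate block, DESeq2, robust dispersions, no filter or upper-quartile scaling (adjusted p from 0.054 to 0.166). The summed neutrophil markers went from between 0 and 0.166 to between 5.44 and 7, carried by Camp and S100a8. Endothelial and muscle markers summed to between 9.08 and 11.2 and between 7.91 and 10.5 CPM in control, against 4.86 to 5.84 and 2.34 to 3.05 with IL-1β. Erg, the 1 endothelial marker called as lower, carried the endothelial fall, its mean going from 7.91 to 1.51 CPM. Osteoclast markers summed to between 116 and 119 in control and between 116 and 130 with IL-1β. Most of the osteoclast sum was Ctsk, whose mean went from 102 to 125 CPM. Osteoblast and synovial fibroblast markers were not low, with sums of 5840 to 5990 and 5820 to 5970 CPM in control. With IL-1β these sums were 1720 to 1820 and 2070 to 2160 CPM. Both lists were dominated by Col1a1, which fell from 5311 to 1892 CPM. Beside it, the osteoblast marker Alpl fell from 45.7 to 2.73 CPM and the synovial marker Pdpn rose from 34.3 to 384 CPM. Of the testable markers, 2 of 3 endothelial ones rose and 1 fell, 4 of 7 muscle ones fell, 2 of 2 osteoclast ones rose, 6 of 7 osteoblast ones fell, and 6 of 10 synovial and tendon ones fell and 1 rose. The part of other cells in the results below was not tested, and in such bulk samples fewer cells of a type cannot be told apart from less RNA per cell.

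The response was broad. Of the genes tested, 5969 rose (38.5%) and 6258 fell (40.4%) at an adjusted p under 0.05 in edgeR's quasi-likelihood test, 78.9% in all. Because a call was the rule rather than the exception, the groups below are also read with a second call that asks for a change of at least 2-fold as well; 2860 genes (18.4%) rose and 3294 (21.2%) fell by that measure. The 3 libraries of a group lay wholly above the other group for 38.8% of genes and wholly below for 41.1%. The median log2 change over all genes was −0.03, and 1 gene in 10 lay below −2.005 and 1 in 10 above 1.82. The genes that fell at least 2-fold held 32.5 to 32.7% of all counts in control libraries and 5.74 to 5.82% with IL-1β, whereas those that rose at least 2-fold went from between 8.14 and 8.2% to between 40.4 and 40.7%. The direction differed with the level of expression. Among the 4514 genes with a mean level over both groups of 1 to 10 CPM, 32.2% fell and 18.2% rose at least 2-fold, while among the 1691 genes of 100 to 1000 CPM 10.2% fell and 26.1% rose.

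Among genes with a mean of at least 1 CPM in each group, the largest rises held many genes of inflammation. The largest falls were of other kinds. Genes near 0 in control, such as Nos2 and Saa3, were below the limit for this reading. Among genes with a mean of at least 50 CPM in the higher and 1 CPM in the lower group, the 12 largest rises were Mmp3, Cxcl5, Ptgs2, Lcn2, C3, Ccl7, Tnfaip3, Steap4, Lif, Procr, Rnd1 and Chil1, with log2 changes from 14.17 to 7.09. Steap4, a membrane enzyme that reduces iron and copper, stood at 6.62, 7.68 and 6.20 CPM in control and 1258, 1278 and 1269.8 CPM with IL-1β, a 186-fold rise (log2 change 7.53 ± 0.06, adjusted p = 4.65e-33). Procr, the endothelial protein C receptor that helps to activate an anticoagulant, went from 6.47, 6.10 and 6.30 to 963, 961 and 959.7 CPM, and Rnd1, an atypical small GTPase that loosens the actin skeleton, from 6.47, 6.41 and 6.40 to 945, 971 and 850.2 CPM. The groups were far apart at each of these genes, with control libraries no higher than 7.68 CPM. Chil1, which encodes the cartilage glycoprotein YKL-40, and Lif, a cytokine of the interleukin-6 family, rose 137-fold and 163-fold. Complement component C3 rose 287-fold, from 5.81, 6.28 and 6.04 to 1786, 1790.0 and 1628 CPM.

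Under the same limits, the 12 largest falls were Cdkn1c, Ccn5, Ppp1r1b, Ogn, Timp3, Mest, Col27a1, Fry, Fzd9, H19, Cd24a and Aff3. Cdkn1c, which encodes the cell cycle inhibitor p57, stood at 325, 334 and 335 CPM in control and 1.34, 1.21 and 0.512 CPM with IL-1β (log2 change −8.35 ± 0.19, adjusted p = 4.39e-29). Ccn5, a matricellular protein that lacks the C-terminal domain of its relatives, fell from 244, 245 and 243 to 1.22, 1.03 and 1.25 CPM, and Ppp1r1b, the phosphatase inhibitor DARPP-32, from 309.9, 303 and 324 to 1.94, 2.12 and 1.65 CPM. Each of these genes was thus lost to within a few CPM. Ogn, the small leucine-rich proteoglycan osteoglycin, fell 130.1-fold and Col27a1, a fibrillar collagen of growing cartilage, 95.9-fold. Timp3, an inhibitor of metalloproteinases held in the matrix, and Fzd9, a Wnt receptor, fell 129-fold and 83.6-fold. Aff3, a subunit of transcription elongation complexes, fell 65.5-fold, the cell surface protein gene Cd24a 66.2-fold, and Fry, a large scaffold protein for NDR kinases, 90.7-fold.

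**Figure D1:**
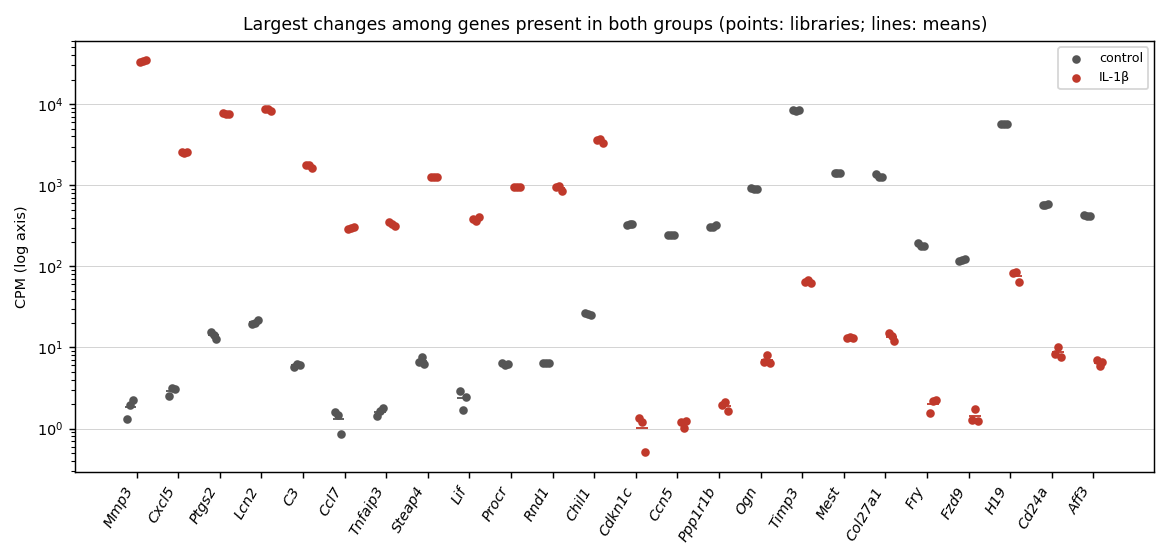
CPM on a log axis of the 12 genes with the largest rise (left) and the 12 with the largest fall (right) in each control library (grey) and each IL-1β library (red), with short lines for the group means. Only genes with a mean of at least 50 CPM in the higher and 1 CPM in the lower group were considered. No gene shown had overlapping groups, and the weakest of the 24 changes, Aff3, was 65.5-fold.

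The promoters of the strongest risers held motifs of the factors at the end of the IL-1 pathway in a larger share than promoters at large. RefSeq promoter sequences (assembly GRCm38.p6, the 250 bases before the gene start) were matched by symbol for 67 of the 100 genes with the largest rise and 64 of the 100 with the largest fall. Both sets were drawn from called genes with a mean of at least 10 CPM in the higher group. Here and below, promoters to show were picked without those of a single chromosome. The κB motif, read like all motifs here on both strands, was in 26.9% of the promoters of risers and 12.5% of those of fallers, against 7.01% of all 27025 promoters. The AP-1 motif TGACTCA was in 16.4% and 6.25%, against 4.43%. The cyclic AMP element TGACGTCA was in none of either set and in 1.62% of all. A match is only a run of letters, and these shares describe the sets without a test. Cxcl2, at chr5:90903649-90903898, is shown since it had the largest rise with a κB match, and Mmp3, at chr9:7445572-7445821, since it had the largest rise with an AP-1 match; both lie on the + strand, and capitals mark the motif.
Cxcl2: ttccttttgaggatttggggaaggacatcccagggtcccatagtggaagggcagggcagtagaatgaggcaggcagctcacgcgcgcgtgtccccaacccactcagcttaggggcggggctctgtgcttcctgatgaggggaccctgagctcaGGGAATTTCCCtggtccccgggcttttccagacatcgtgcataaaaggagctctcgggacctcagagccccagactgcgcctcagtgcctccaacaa
Mmp3: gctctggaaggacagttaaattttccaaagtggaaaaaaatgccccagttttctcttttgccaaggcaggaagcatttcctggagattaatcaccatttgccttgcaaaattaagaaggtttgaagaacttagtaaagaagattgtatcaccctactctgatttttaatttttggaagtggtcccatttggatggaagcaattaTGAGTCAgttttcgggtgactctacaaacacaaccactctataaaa
In Cxcl2 2 overlapping κB matches began 97 and 96 bases before the start, and in Mmp3 1 AP-1 match began 46 bases before it.

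Genes were next read in 46 lists by function, and every count below is to be read against the shares over all genes, 38.5% rising and 40.4% falling, or 18.4% and 21.2% at least 2-fold. In 11 of the lists the 2-fold share was at or below that of all genes in both directions: primary cilium, respiratory chain, mitochondrial ribosomal proteins, serine and one-carbon metabolism, proteasome, lysosome, cytosolic ribosomal proteins, ribosome biogenesis, tRNA synthetases, YAP and TAZ targets, and histone and DNA modifying enzymes. The plot of lists by share shows mitosis, the Hedgehog pathway, the imprinted growth network and SOX factors at 1 end and kinase phosphatases and iron handling at the other.

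**Figure D2:**
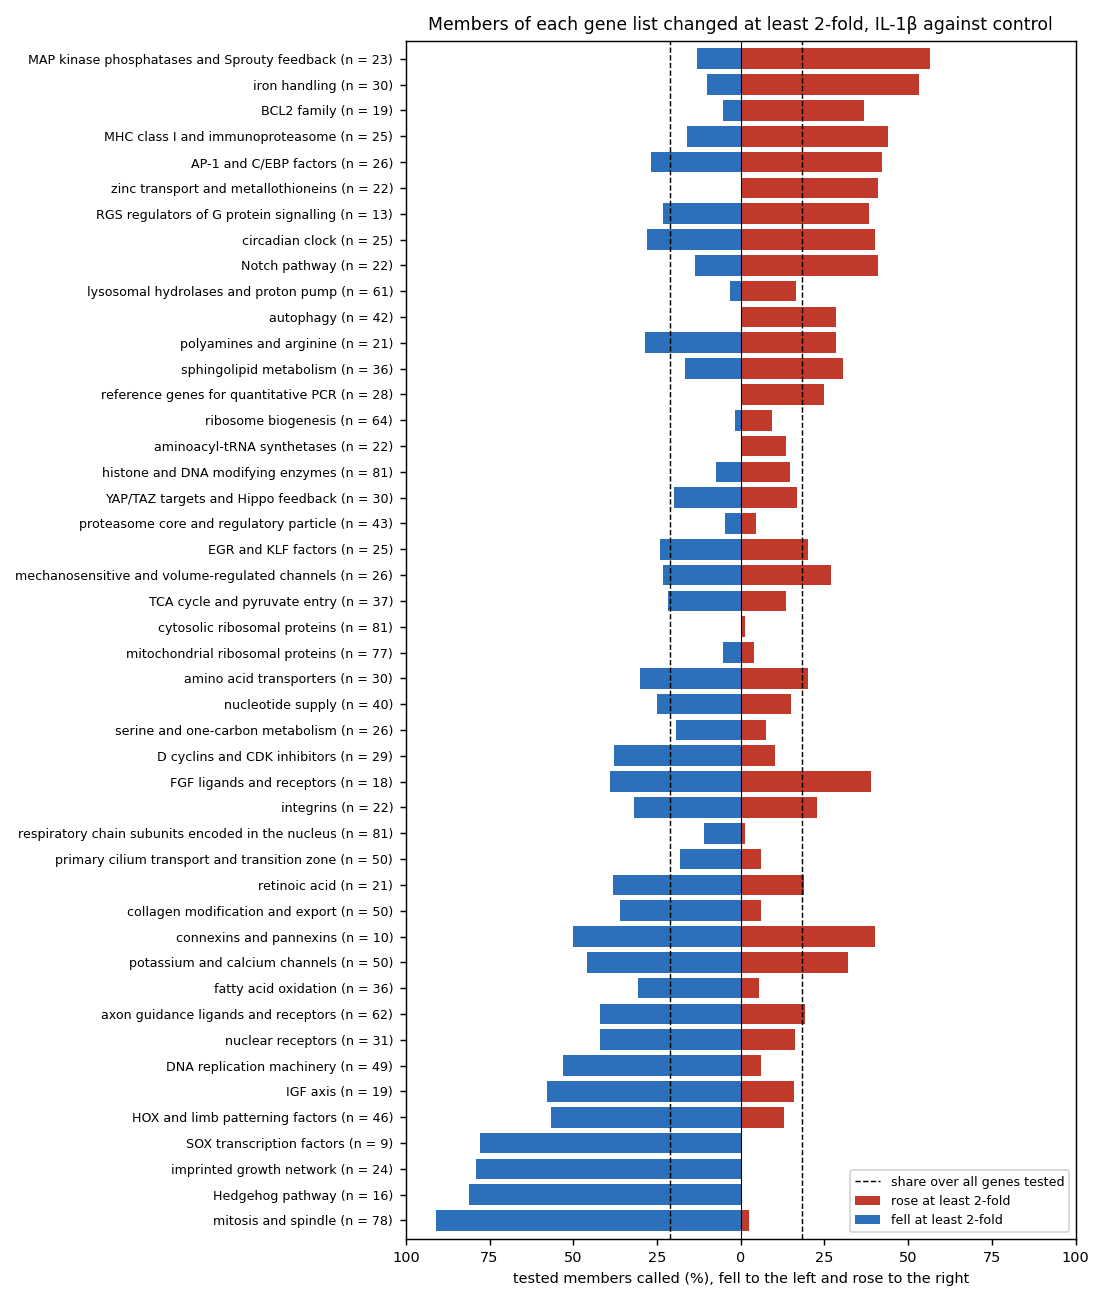
Share of tested members of each list that rose (red, right) or fell (blue, left) at least 2-fold with IL-1β, ordered by the median log2 change, with the number of tested members and dashed lines at the shares over all genes, 18.4% and 21.2%. The mitosis list reaches furthest to the left and the list of MAP kinase phosphatases and Sprouty feedback furthest to the right.

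The transcription factors that hold chondrocyte identity fell. SOX factors include Sox9, Sox5 and Sox6, the trio that drives cartilage genes; 9 of 19 listed genes could be tested, 8 fell, 7 of them at least 2-fold, and none rose, with a median log2 change of −1.50. Sox6 stood at 187, 184 and 179 CPM in control and 18.3, 18.95 and 22.8 CPM with IL-1β (log2 change −3.19 ± 0.07, adjusted p = 1.07e-23). Sox9 itself fell less, from 339, 324 and 326 to 132, 124 and 132 CPM (−1.35 ± 0.04), and Sox5 from 59.9, 54.00 and 55.2 to 35.3, 29.00 and 34.2 CPM (−0.78 ± 0.06). The trio thus fell by unequal amounts, with no overlap between groups at any of the 3. Sox4, which acts early in skeletal progenitors, fell 10.6-fold and Sox8, a close relative of Sox9, 24.7-fold, while Sox11 had 12.8, 9.53 and 8.68 CPM against 8.63, 7.93 and 12.4 CPM and overlapping groups (adjusted p = 0.599).

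Position along the body and within the limb is written in HOX and other patterning factors, and most of those also fell. Of 46 tested members of the list 32 fell, 26 of them at least 2-fold, and 7 rose, 6 at least 2-fold, with a median of −1.24. Hoxa10, a HOX gene of the upper segment of the limb, went from 128, 129 and 129 to 12.8, 10.96 and 12.9 CPM (log2 change −3.39 ± 0.07). Pitx1, the hindlimb factor, went from 124, 124 and 122 to 31.3, 27.6 and 29.1 CPM (−2.07 ± 0.05). The hindlimb partner Tbx4 did not pass the test (log2 change −0.01 ± 0.09, adjusted p = 0.888). A few factors went the other way. Pax9, a factor of the axial skeleton and teeth, rose from 1.97, 1.94 and 1.42 to 37.9, 38.8 and 35.5 CPM, and Twist2, which holds back mesenchymal differentiation, from 1.57, 1.08 and 1.47 to 28.4, 24.4 and 24.4 CPM. Meis2, a HOX cofactor of the proximal limb, rose 6.06-fold, whereas Prrx2, a factor of limb mesenchyme, fell 5.06-fold.

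Hedgehog signalling paces the growth of cartilage through the receptor Ptch1, the transducer Smo and the GLI factors. Of 16 tested members 14 fell, 13 at least 2-fold, and 1 rose, with a median of −2.11. The coreceptor gene Gas1 stood at 356, 349 and 331 CPM in control and 6.56, 5.81 and 4.84 CPM with IL-1β (log2 change −5.91 ± 0.09, adjusted p = 1.01e-28), and the coreceptor Cdon fell from 567, 576 and 574 to 56.4, 54.8 and 61.7 CPM. Gli1, the factor that is itself the usual readout of the pathway, had 359 counts over the control libraries and 1 with IL-1β, 294 times as many per library size, and an exact 95% interval for counting error alone ran from 52.5 to 11700. The ligand gene Ihh had 193 and 3 counts. Smo fell 2.62-fold and Gli2 9.77-fold. Ptch1, also a target of the pathway, was the 1 member that rose, from 99.9, 100.4 and 100.1 to 123, 133 and 139 CPM (log2 change 0.40 ± 0.05, adjusted p = 4.17e-07), a modest change but with groups apart.

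Vertebrate Hedgehog signals pass through the primary cilium, whose transport and gate proteins fell more mildly. Of 50 tested members 32 fell, 9 at least 2-fold, and 5 rose, 3 at least 2-fold, with a median of −0.48. The 2-fold falls made up 18% of the list, below the 21.2% over all genes. Ift80, a subunit of the transport particle, fell from 38.3, 39.2 and 39.9 to 10.3, 9.26 and 8.65 CPM and Wdr35, another, from 60.97, 63.2 and 56.2 to 13.8, 15.8 and 14.9 CPM. The motor Kif3a had 23.7, 21.7 and 24.3 CPM in control and 26.2, 24.6 and 25.7 CPM with IL-1β and did not pass the test (adjusted p = 0.0994). Arl13b, a small GTPase of the cilium membrane, rose 2.70-fold and Bbs5, part of the cargo coat of the cilium, 2.46-fold. The X-box, the site of the RFX factors of cilium genes, was in 2 of 44 matched promoters, or 4.55%, against 0.659% of all.

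A network of imprinted genes, which are expressed from 1 parental allele and set fetal growth, was among the lists that fell most. Of 24 tested members 22 fell, 19 at least 2-fold, and 1 rose, with a median of −1.69. The growth-restraining long RNA H19 stood at 5690.2, 5699 and 5754 CPM in control and 82.1, 85.6 and 63.4 CPM with IL-1β (log2 change −6.21 ± 0.07, adjusted p = 2.63e-28). Mest, a hydrolase expressed from the paternal allele, fell from 1400.1, 1408 and 1415 to 13.2, 13.4 and 13.04 CPM (−6.74 ± 0.05). Peg3, a zinc finger factor, fell from 1708, 1612 and 1585 to 106, 107 and 112 CPM (−3.92 ± 0.04). The members from which most RNA was counted were thus lower in all 3 IL-1β libraries. Igf2, the growth factor that shares a locus with H19, fell 9.15-fold, Plagl1, a factor that controls other members, 2.87-fold, and Zim1, a neighbour of Peg3, 16.6-fold. Meg3 fell 2.46-fold, whereas Dlk1, at the same locus, had 33.2, 36.7 and 36.7 CPM in control and 38.9, 30.8 and 35.1 CPM with IL-1β with overlapping groups. Impact, a regulator of the kinase GCN2, was the 1 member that rose (log2 change 0.46 ± 0.04).

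Growth factor systems changed in parts. For FGF, 9 of 18 tested members fell and 8 rose, 7 at least 2-fold each way, with a median of −0.31. The receptors fell together: Fgfr3, the brake on growth plate chondrocytes, went from 604, 592 and 569.9 to 20.7, 17.9 and 14.6 CPM (log2 change −5.06 ± 0.08, adjusted p = 1.08e-26). Fgfr2 fell 10.6-fold and Fgfr1 1.30-fold. Ligands went both ways. Fgf7, a mesenchymal ligand that acts on epithelia, rose from 23.7, 22.6 and 23.8 to 181, 186 and 198 CPM, Fgf18, a ligand that favours cartilage formation, rose from 0.556, 0.452 and 0.355 to 3.40, 2.24 and 3.47 CPM, and Fgf2, held in cartilage matrix, fell 3.09-fold. Fgf9 had 1 count in control and 191 with IL-1β.

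The IGF axis, which supports matrix synthesis, fell at the ligand and rose at the receptor. Of 19 tested members 12 fell, 11 at least 2-fold, and 6 rose, 3 at least 2-fold, with a median of −1.13. Igf1 fell from 6.72, 7.40 and 7.46 to 0.425, 0.545 and 0.171 CPM, and Igfbp5, a binding protein kept in the matrix, from 3297, 3320.3 and 3305 to 239, 219.5 and 191 CPM (log2 change −3.93 ± 0.05, adjusted p = 4.52e-27). Pappa, a protease that frees IGF from its binding proteins, fell 9.93-fold, while its inhibitor Stc2 rose from 72.3, 72.2 and 71.9 to 313, 324 and 316 CPM. The receptor gene Igf1r rose from 78.1, 69.03 and 70.8 to 157, 165 and 183 CPM. Igfbp3, the main carrier in blood, rose 3.22-fold.

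For Notch, a pathway between touching cells, 12 of 22 tested members rose, 9 at least 2-fold, and 4 fell, 3 at least 2-fold, with a median of 0.52. The receptors diverged: Notch1 fell from 43.7, 42.4 and 42.05 to 4.92, 4.66 and 5.47 CPM and Notch2 and Notch3 rose 1.92-fold and 3.42-fold. Among ligands, Jag2 rose from 2.37, 1.58 and 1.98 to 15.2, 18.5 and 18.2 CPM and Jag1 had 9.55, 9.08 and 10.4 CPM in control and 10.6, 11.02 and 10.1 CPM with IL-1β, with overlapping groups. Hes1, the classical target, fell 4.20-fold, whereas Rbpj, the DNA-binding partner of the receptor, rose 3.43-fold and Dtx4, a ligase that modifies Notch, 9.78-fold.

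Cell division genes fell in a block. Of 78 tested members of the mitosis and spindle list 75 fell, 71 at least 2-fold, and 2 rose, with a median of −3.20, the lowest of the 46 lists. Ccnb1, a cyclin that starts mitosis, stood at 30.6, 31.1 and 34.3 CPM in control and 0.668, 0.484 and 0.569 CPM with IL-1β (log2 change −5.78 ± 0.27, adjusted p = 6.37e-21). Plk1, a kinase that works through every step of mitosis, fell from 24.3, 28.4 and 29.5 to 0.972, 0.969 and 0.968 CPM. Control libraries thus held a clear mitotic signal that was nearly gone with IL-1β, since Ccnb1 did not exceed 0.668 CPM there. The 2 members that rose were Ccnf, an F-box protein that marks cell cycle proteins for destruction, from 10.9, 10.2 and 9.29 to 43.3, 45.96 and 49.5 CPM, and Zwint, a kinetochore protein, from 41.4, 41.2 and 43.1 to 83.4, 88.1 and 87.8 CPM.

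Genes that copy DNA also fell, with a smaller median. Of 49 tested members of the replication list 35 fell, 26 at least 2-fold, and 7 rose, 3 at least 2-fold, with a median of −1.08. Mcm5, a subunit of the replicative helicase, went from 23.6, 22.9 and 20.5 to 2.31, 2.85 and 1.99 CPM and Mcm2, another, from 44.5, 53.01 and 47.7 to 7.90, 8.72 and 7.51 CPM. Cdt1, which loads the helicase, rose from 6.72, 6.95 and 6.65 to 18.96, 16.5 and 15.3 CPM, and Wdhd1, which ties polymerase α to it, rose 2.27-fold. Supply of nucleotides fell for the enzymes of DNA precursors: thymidine kinase Tk1 fell 15.6-fold and the ribonucleotide reductase subunit Rrm2 12.03-fold. Over the 40 tested members of that list 20 fell and 13 rose, with a median of −0.25, and the salvage enzyme Upp1, which splits uridine, rose from 0.404, 0.0903 and 0.102 to 50.4, 41.6 and 43.5 CPM (log2 change 7.81, adjusted p = 1.53e-22).

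Cyclins and their inhibitors did not share 1 direction. Ccnd1, the cyclin through which growth factors open the cycle, fell from 173, 187 and 184 to 23.3, 22.6 and 20.8 CPM (log2 change −3.03 ± 0.06). Of the inhibitors, Cdkn1a, which encodes p21, rose from 323, 311 and 322 to 1467, 1489 and 1380.3 CPM (2.18 ± 0.04), whereas p57, as given above, and p18, encoded by Cdkn2c, fell, the latter 3.99-fold. Across the list 16 of 29 tested members fell, 11 at least 2-fold, and 10 rose, 3 at least 2-fold.

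A pair of promoters of division genes is shown for the letters that many genes of this block share. The CCAAT box, bound by NF-Y, was in 66.2% of 68 matched promoters of the mitosis list against 34.5% of all promoters, and the CHR element TTTGAA, bound by cell cycle repressor complexes, in 33.8% against 16.3%. An E2F motif (TTTGGCGC, TTTCCCGC or TTTCGCGC) was in 22.5% of 40 promoters of the replication list, 9 genes, against 1.59% of all. Ccnb2, at chr9:70421555-70421804 on the - strand, is the mitosis gene with the largest fall, and Mcm5, at chr8:75109259-75109508 on the + strand, the replication gene with the largest fall that held a match; capitals mark CCAAT boxes in the first and E2F letters in the second.
Ccnb2: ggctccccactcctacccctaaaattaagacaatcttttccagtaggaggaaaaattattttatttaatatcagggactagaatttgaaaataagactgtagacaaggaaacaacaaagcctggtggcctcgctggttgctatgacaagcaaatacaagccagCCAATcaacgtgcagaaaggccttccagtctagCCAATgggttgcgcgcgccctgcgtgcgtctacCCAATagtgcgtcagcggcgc
Mcm5: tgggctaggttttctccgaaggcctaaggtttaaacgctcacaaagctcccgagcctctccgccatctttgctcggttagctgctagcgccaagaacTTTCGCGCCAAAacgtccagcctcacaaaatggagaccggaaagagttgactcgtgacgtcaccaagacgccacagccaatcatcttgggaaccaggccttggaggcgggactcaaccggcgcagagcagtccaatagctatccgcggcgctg
The 3 boxes in Ccnb2 were spaced along the last 87 bases before the start, and the 2 E2F matches of Mcm5 overlapped.

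**Figure D3:**
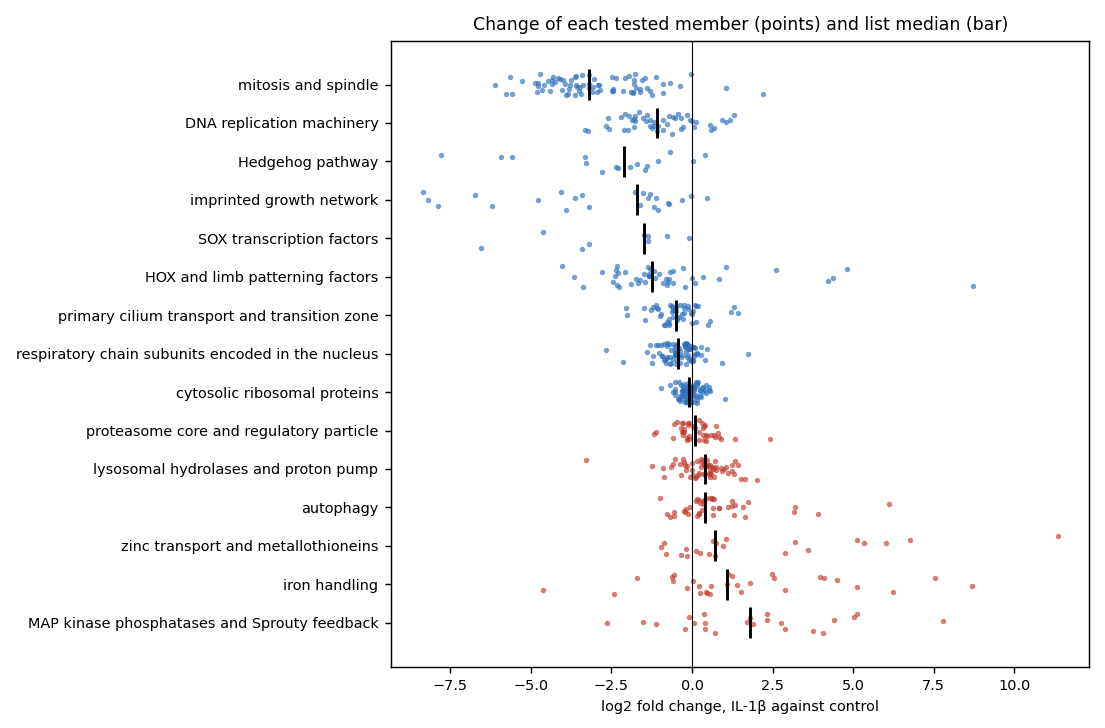
Log2 fold change of every tested member (points, spread vertically to show them) and the median (black bar) for 15 lists, blue where the median was below 0 and red where it was above. The mitosis list lies almost wholly left of 0, ribosomal proteins sit close to it, and iron and zinc genes reach far to the right.

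Iron handling was among the programmes that rose most. Of 30 tested members 22 rose, 16 at least 2-fold, and 7 fell, 3 at least 2-fold, with a median of 1.09. Uptake genes rose: Tfrc, the transferrin receptor, from 121, 124 and 124 to 347, 356 and 359 CPM, Slc11a2, the transporter DMT1, from 37.4, 40.5 and 41.2 to 223, 218 and 222 CPM, and Slc39a14, the carrier ZIP14, from 166, 169 and 161 to 1249, 1237 and 1214 CPM (log2 change 2.90 ± 0.03, adjusted p = 1.22e-28). Storage genes rose with them. Fth1, the heavy chain of ferritin, went from 689, 704 and 731 to 16409.8, 16453 and 15180.3 CPM (4.50 ± 0.03) and Ftl1, the light chain, from 807, 821 and 848 to 1932, 1999 and 1921 CPM (1.24 ± 0.04). The heavy chain has processed copies in the genome that can share its reads. Slc40a1, ferroportin, the only known exporter of iron from cells, fell from 37.5, 36.1 and 34.1 to 7.17, 5.93 and 7.12 CPM (log2 change −2.41 ± 0.10, adjusted p = 5.06e-18). Cp, ceruloplasmin, which oxidises iron for export, rose 5.81-fold, and Heph, its membrane-bound relative, 17.3-fold. Among reductases, Steap4 rose as given above, but Steap3, the reductase of the transferrin cycle, fell from 119, 124 and 122 to 5.83, 5.45 and 3.70 CPM. Hmox1, which frees iron from haem, rose 15.6-fold and Lcn2, which binds iron-laden siderophores, 415-fold.

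**Figure D4:**
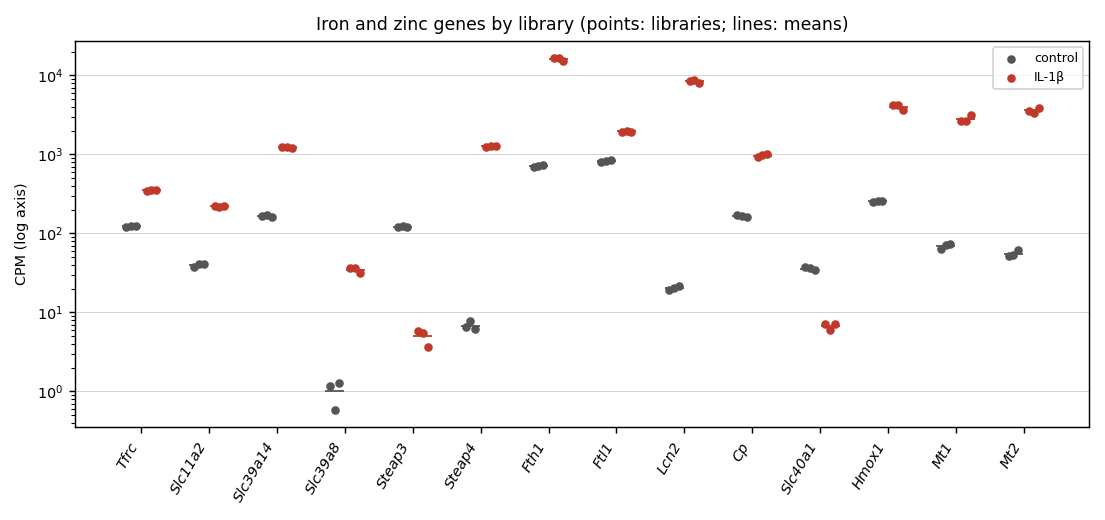
CPM on a log axis of 14 iron and zinc genes in each control library (grey) and IL-1β library (red), with lines for the means. Steap3 and Slc40a1 were lower with IL-1β, the other 12 were higher, and no gene had overlapping groups.

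Zinc genes rose alongside. Of 22 tested members of the list 16 rose, 9 at least 2-fold, and 6 fell, none of them 2-fold, with a median of 0.72. Metallothioneins, small proteins that bind zinc and copper, led: Mt1 went from 64.1, 70.8 and 72.6 to 2680.1, 2637 and 3111 CPM and Mt2 from 52.03, 52.7 and 62.1 to 3579, 3342 and 3879 CPM (log2 change 6.02 ± 0.06, adjusted p = 9.44e-30). Mt3, the neuronal form, had 0 counts in control and 895 with IL-1β, at least 364-fold higher when the group is set to 3 counts instead of none. The zinc and manganese importer Slc39a8 rose from 1.16, 0.587 and 1.27 to 36.03, 36.03 and 31.3 CPM. Mtf1, the factor that reads zinc and binds the metal element, rose 1.64-fold. The fall was deepest at Slc30a5, which loads zinc into the secretory pathway (log2 change −0.96 ± 0.05). The letters TGCNCNC, a loose form of the metal element, were in 68.4% of 19 matched promoters of the list against 43.8% of all. Mt2, at chr8:94172368-94172617 on the + strand, is shown because it held 5 matches to these letters. That choice was made after the matches were seen, and capitals mark them.
Mt2: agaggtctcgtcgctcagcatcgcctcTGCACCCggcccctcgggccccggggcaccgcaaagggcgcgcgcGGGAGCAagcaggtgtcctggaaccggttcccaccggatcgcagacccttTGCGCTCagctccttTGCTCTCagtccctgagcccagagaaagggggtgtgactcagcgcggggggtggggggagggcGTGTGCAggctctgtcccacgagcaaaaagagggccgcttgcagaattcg
The antioxidant element TGACNNNGC was in 18.2% of 22 iron promoters and 16.7% of 36 proteasome promoters, against 10.1% of all; a stretch TGACTCAGC counts for AP-1 as well.

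Mitochondrial energy genes drifted down. Of 81 tested subunits of the respiratory chain that are encoded in the nucleus 60 fell and 8 rose, with a median of −0.42, yet only 9 fell at least 2-fold. Atp5g1, a copy of the gene for the ring subunit of ATP synthase, fell from 54.00, 54.2 and 57.1 to 13.2, 12.9 and 11.1 CPM, with a log2 change of −2.15 beside −0.88 for Atp5g2 and −0.46 for Atp5g3, its relatives. The 1 subunit that rose at least 2-fold was Ndufa4l2, a form that hypoxia induces, from 71.6, 67.7 and 72.7 to 224, 227 and 256 CPM (log2 change 1.74 ± 0.05). Mitochondrial ribosomal proteins split, with 31 of 77 falling and 28 rising and a median of −0.12. Genes of fatty acid oxidation followed the chain: 25 of 36 tested members fell, 11 at least 2-fold, and 7 rose, 2 at least 2-fold. Cpt1a, the gate of fatty acids into mitochondria, fell from 27.6, 21.3 and 27.4 to 12.2, 12.4 and 12.9 CPM.

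Within the citric acid cycle single enzymes changed. Over 37 tested members 17 fell and 13 rose, with a median of −0.06. Idh2 and Idh1, the NADP-dependent isocitrate dehydrogenases of mitochondria and cytosol, fell from 65.9, 75.1 and 74.6 to 4.74, 5.81 and 5.58 CPM (log2 change −3.74 ± 0.10) and from 81.03, 82.7 and 79.98 to 13.4, 12.4 and 12.8 CPM (−2.66 ± 0.07). Pdk1, a kinase that shuts pyruvate out of the cycle, rose from 89.4, 93.2 and 88.7 to 402, 403 and 414 CPM, and Me2, a malic enzyme, rose 6.58-fold. Mpc2, a subunit of the mitochondrial pyruvate carrier, fell (log2 change −1.40 ± 0.08), whereas its partner Mpc1 did not pass the test (0.05 ± 0.10, adjusted p = 0.635).

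Genes of amino acid carriers went both ways, with 14 of 30 rising, 6 at least 2-fold, and 15 falling, 9 at least 2-fold. Slc7a2, a carrier of arginine, the substrate of nitric oxide synthase, went from 470.2, 462 and 458 to 8287, 8287 and 8451 CPM (log2 change 4.17 ± 0.03, adjusted p = 4.74e-33), and Slc7a11, the cystine carrier, rose 51.4-fold. Slc3a2, the shared heavy chain of several carriers, rose from 287, 287 and 296 to 1051, 1066 and 984 CPM. Slc1a5, a carrier of glutamine, fell from 271, 269.7 and 270.1 to 86.5, 83.9 and 76.5 CPM and Slc7a5, the leucine carrier that pairs with Slc3a2, from 391, 399 and 396 to 254, 256 and 246 CPM. Inside the cell Ass1, which recycles citrulline to arginine, rose from 14.9, 13.2 and 18.3 to 155, 139 and 108 CPM, and Arg2, the mitochondrial arginase, from at most 0.102 CPM to 40.3, 35.2 and 29.1 CPM. Of 26 serine and one-carbon genes 13 fell, 5 at least 2-fold (19.2%), and 7 rose, 2 at least 2-fold (7.69%). Phgdh, the entry enzyme of serine synthesis, fell (log2 change −1.45 ± 0.04) and Mthfd1l, a mitochondrial folate enzyme, rose (2.41 ± 0.05).

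Of 21 tested polyamine and arginine genes 10 rose and 9 fell, 6 each way at least 2-fold, with a median of 0.26. Odc1, the first enzyme of synthesis, fell from 265, 274 and 278 to 175, 187 and 189 CPM, and Amd1, which makes the aminopropyl donor, from 54.7, 52.7 and 49.7 to 9.84, 10.2 and 9.68 CPM (log2 change −2.40 ± 0.08). Smox, which oxidises spermine, rose from 11.9, 13.7 and 12.6 to 534, 536 and 465 CPM (5.32 ± 0.07), and Sat1, the acetyltransferase that starts their export, from 74.3, 69.7 and 75.9 to 293, 295 and 281 CPM (1.98 ± 0.04). No group overlapped at any of the 4 genes.

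Sphingolipid genes held 1 of the deepest falls of the whole response. Smpd3, a neutral sphingomyelinase known from growth plate chondrocytes and from the release of extracellular vesicles, stood at 851, 851 and 850.2 CPM in control and 0.425, 0.303 and 0.683 CPM with IL-1β (log2 change −10.79 ± 0.26, adjusted p = 2.67e-31). Sgms2, which makes sphingomyelin, rose from 37.3, 36.1 and 39.1 to 206, 218 and 211 CPM, and Sphk1, which makes sphingosine 1-phosphate, from 2.27, 1.67 and 1.47 to 19.7, 19.98 and 17.9 CPM. Ugcg, the first step to glycolipids, rose 3.89-fold. Of 36 tested members 19 rose, 11 at least 2-fold, and 13 fell, 6 at least 2-fold.

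Genes of self-digestion mostly rose. Of 42 tested autophagy genes 29 rose, 12 at least 2-fold, and 7 fell, none of them 2-fold, with a median of 0.39. Sqstm1, the cargo receptor p62, went from 341, 355 and 348 to 5566, 5384 and 4839.9 CPM (log2 change 3.92 ± 0.05, adjusted p = 5.17e-28). Bnip3, a receptor for the removal of mitochondria that also counts as a BCL2 relative, rose from 162, 159 and 171 to 1488, 1455 and 1535 CPM, and Gabarapl1, which coats the forming vesicle, from 82.2, 86.7 and 91.6 to 295, 301 and 281 CPM. Lysosomal genes moved less: 41 of 61 tested members rose, 10 at least 2-fold, and 11 fell, 2 at least 2-fold, with a median of 0.41. Lamp1, a membrane protein of lysosomes, rose 1.40-fold. The factors that control this list parted. Tfeb fell from 12.4, 9.44 and 9.65 to 1.03, 1.33 and 0.854 CPM (log2 change −3.28 ± 0.24) and its relative Tfe3 rose from 52.2, 49.3 and 52.1 to 122, 124 and 117 CPM (1.24 ± 0.05).

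The proteasome stayed close to its control level, and antigen presentation rose unevenly. Of 43 tested proteasome genes 21 rose and 14 fell, but only 2 in each direction by 2-fold, and the median of 0.08 became −0.07 with upper-quartile scaling. Psmd8, a subunit of the regulatory particle, rose from 94.5, 92.4 and 96.1 to 498, 515 and 499 CPM, and Psmb5, the chymotrypsin-like subunit, fell from 64.1, 62.7 and 63.9 to 28.6, 28.6 and 31.1 CPM. In the list of MHC class I and the immunoproteasome 15 of 25 tested members rose, 11 at least 2-fold, and 7 fell, 4 at least 2-fold. The presenting molecule H2-K1 rose from 94.2, 91.8 and 97.1 to 948, 967 and 916 CPM (log2 change 3.32 ± 0.04, adjusted p = 1.66e-28), H2-D1 2.64-fold and the light chain B2m 1.61-fold. Several genes that supply the peptides fell. The peptide pump Tap1 fell from 16.8, 15.04 and 13.9 to 12.8, 11.5 and 10.7 CPM, its partner Tap2 3.41-fold, and the immunoproteasome subunit Psmb10 3.10-fold. Psmb8 was near the limit of detection, with 0.455, 0.722 and 0.508 CPM in control and 0.425, 0.666 and 0.342 CPM with IL-1β. The H2-Q genes rose furthest, H2-Q6 by 7.15 on the log2 scale, but they are near-identical copies among which reads can be shared.

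Within the machinery of protein synthesis, the ribosomal proteins changed little. Of 81 tested cytosolic ribosomal proteins 36 fell and 21 rose, but none fell 2-fold and only Rpl24 rose 2-fold, and the median was −0.10. Rpl24 had 0.354, 0.452 and 0.508 CPM in control and 0.790, 0.787 and 1.08 CPM with IL-1β, a level so low for a gene every cell uses that its value is uncertain, since these genes have many processed copies that can share reads. Its call was lost without control replicate 1 or 2 or IL-1β replicate 3 or with upper-quartile scaling (adjusted p from 0.0604 to 0.117). Rpl10a fell from 381, 403 and 416 to 212, 212 and 198 CPM, the deepest fall of the list. Of 64 genes that build ribosomes 31 rose, 6 at least 2-fold (9.38%), and 18 fell, 1 at least 2-fold, with a median of 0.18 that was 0.03 with upper-quartile scaling. Myc, a factor that drives this process, rose from 30.3, 30.2 and 33.4 to 87.7, 97.6 and 77.8 CPM and Ddx10, a nucleolar helicase, 4.54-fold. Of 22 tRNA synthetase genes 13 rose, 3 at least 2-fold, and 8 fell, none 2-fold. The elongation factor gene Eef1a1 fell from 6077, 6090.0 and 6133 to 1987, 2009 and 1683 CPM, chosen for mention after its values were seen. Whether copies elsewhere in the genome shared its reads was not tested. Eef2, another elongation factor gene, rose 1.19-fold.

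Collagen leaves the cell through a dedicated route of modifying enzymes, chaperones and large transport vesicles, and most of this route fell. Of 50 tested members 35 fell, 18 at least 2-fold, and 12 rose, 3 at least 2-fold, with a median of −0.52. Serpinh1, the collagen chaperone HSP47, stood at 4035, 4086 and 4082 CPM in control and 728, 741 and 627 CPM with IL-1β (log2 change −2.54 ± 0.04, adjusted p = 6.12e-25). Creb3l2, the factor that turns on secretion in chondrocytes, fell from 286, 285 and 281 to 78.5, 85.1 and 76.2 CPM, and Sec23a, a coat protein that it controls, from 242, 257 and 248 to 73.5, 67.9 and 70.2 CPM. Sec16b, which marks exit sites, fell 58.4-fold. Several hydroxylases went the other way. P4ha2, a prolyl hydroxylase subunit, rose from 232, 245 and 245 to 1439.8, 1434 and 1322 CPM, Plod1, a lysyl hydroxylase, from 314, 318 and 318 to 1105, 1127 and 1036 CPM, and Plod2 1.95-fold. Lox, the crosslinking enzyme that acts outside the cell and stands in no list here, rose from 1623, 1549 and 1578 to 15100.4, 15537 and 15010.0 CPM.

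Brakes on kinase signalling rose strongly. Of 23 tested MAP kinase phosphatases and Sprouty-type inhibitors 16 rose, 13 at least 2-fold, and 3 fell, all at least 2-fold, with a median of 1.78, the highest of the lists. Errfi1, an inhibitor of the EGF receptor, went from 24.8, 24.2 and 26.96 to 899.8, 875 and 868 CPM (log2 change 5.12 ± 0.05, adjusted p = 2.68e-30). Dusp4, a nuclear phosphatase of ERK and JNK, rose from 0.354, 0.181 and 0.152 to 50.5, 54.1 and 50.8 CPM, and Dusp1, which acts on p38 and JNK, from 36.9, 39.5 and 36.3 to 201, 184 and 186 CPM. Dusp6, specific for ERK, had 12.1, 14.2 and 11.8 CPM in control and 11.8, 10.8 and 10.2 CPM with IL-1β with overlapping groups (adjusted p = 0.0554), and was called as lower without control replicate 1 (adjusted p = 0.0477), control replicate 3 (0.0348) or IL-1β replicate 1 (0.048). The 3 that fell were Lrig3, Dusp7 and Dusp14, with Lrig3, a membrane relative of the inhibitor Lrig1, down 6.18-fold. Among RGS proteins, which switch off G proteins, Rgs16 rose from 0.253, 0.406 and 0.305 to 102, 99.6 and 95.01 CPM and Rgs2 fell from 10.6, 10.5 and 8.99 to 0.668, 0.303 and 0.968 CPM, within a list where 7 of 13 rose and 4 fell.

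AP-1 and C/EBP factors moved in both directions. Of 26 tested members 15 rose, 11 at least 2-fold, and 10 fell, 7 at least 2-fold. Fosl1, which encodes FRA1, rose from 4.19, 4.47 and 4.52 to 118, 119 and 106 CPM, Junb from 35.01, 31.3 and 34.5 to 306, 276 and 231 CPM, and Maff, a small MAF that lacks an activating domain, from 1.52, 1.35 and 2.59 to 156, 158 and 151 CPM (log2 change 6.42 ± 0.14, adjusted p = 5.05e-27). Fos itself fell 7.84-fold. The large factor Maf fell from 162, 159.6 and 165 to 16.2, 16.1 and 17.9 CPM. Cebpb and Cebpd, the inflammatory C/EBP factors, rose 4.58-fold and 7.64-fold, and Cebpa, which favours adipocytes, fell 1.48-fold. Among zinc finger factors of the EGR and KLF families the directions balanced, with 11 of 25 rising and 9 falling and a median of 0.08 that became −0.07 with upper-quartile scaling. Klf6 rose from 51.2, 47.3 and 48.6 to 342, 359 and 344 CPM, Klf2 fell from 13.8, 18.3 and 17.9 to 0.972, 0.969 and 0.398 CPM, and Egr1 had 159, 145 and 149.8 CPM in control and 159.5, 146 and 141 CPM with IL-1β, with overlapping groups.

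Nuclear receptors fell more often than they rose. Of 31 tested receptors 17 fell, 13 at least 2-fold, and 10 rose, 5 at least 2-fold, with a median of −0.84. Rxra, the partner that many receptors need, fell from 85.7, 86.2 and 87.3 to 29.2, 30.3 and 27.7 CPM and Rarg, the retinoic acid receptor of cartilage, from 209, 213 and 204 to 93.02, 93.6 and 95.9 CPM. Ppard, a fatty acid receptor, rose from 35.5, 35.8 and 38.6 to 258, 254 and 243 CPM (log2 change 2.78 ± 0.05, adjusted p = 2.22e-25) and its relative Pparg fell 2.97-fold. The glucocorticoid receptor gene Nr3c1 rose by 0.16 ± 0.04 on the log2 scale, a call that was lost with upper-quartile scaling (adjusted p = 0.762). Retinoic acid genes leaned the same way, with 12 of 21 falling and 7 rising: Aldh1a1, which makes the ligand, fell from 35.6, 35.3 and 37.2 to 1.03, 1.21 and 0.911 CPM, and Cyp26b1, which destroys it, rose 1.40-fold.

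The circadian clock is a loop in which Arntl and Clock drive their own repressors, and its members moved to either side. Of 25 tested genes 14 rose, 10 at least 2-fold, and 10 fell, 7 at least 2-fold. Arntl, which encodes BMAL1, went from 11.9, 13.4 and 11.5 to 114, 109.6 and 114 CPM (log2 change 3.19 ± 0.06, adjusted p = 5.76e-25). The repressors Bhlhe40 and Nfil3 rose from 23.1, 23.03 and 22.1 to 711, 684 and 676 CPM and from 10.3, 9.71 and 13.4 to 113, 115 and 103 CPM. Per1 and Cry1 rose 2.95-fold and 4.01-fold, whereas Per3 fell from 59.8, 56.5 and 50.98 to 3.65, 4.18 and 2.68 CPM. The output factors that usually follow the Arntl arm fell with Per3: Dbp went from 31.5, 34.7 and 33.9 to 3.46, 2.30 and 2.68 CPM and Tef fell 4.48-fold. The nuclear receptors of the second loop parted, with Nr1d1 up 3.09-fold and Nr1d2 down 2.30-fold. Per2 was called as lower, from 8.03, 10.4 and 10.6 to 7.41, 7.99 and 3.19 CPM, a call lost without IL-1β replicate 3 (adjusted p = 0.0725), with DESeq2 (0.0873) and with robust dispersions (0.0701). The labels do not give the time of day at which the cells were taken. The E-box CACGTG, the site of the Arntl and Clock pair, was in 25% of 20 matched promoters of the list against 6.05% of all. Bhlhe41, at chr6:145865421-145865670 on the - strand, is shown as the clock gene with the largest change that held a match; it rose 7.31-fold, and capitals mark the E-box.
Bhlhe41: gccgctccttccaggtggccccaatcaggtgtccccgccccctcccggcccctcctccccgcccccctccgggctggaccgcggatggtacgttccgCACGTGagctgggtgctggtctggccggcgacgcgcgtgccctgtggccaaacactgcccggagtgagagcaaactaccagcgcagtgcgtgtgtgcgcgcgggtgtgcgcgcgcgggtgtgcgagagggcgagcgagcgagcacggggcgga

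Contact and guidance genes fell more than they rose. Of 62 tested semaphorins, ephrins, netrins, slits, neurotrophins and their receptors 35 fell, 26 at least 2-fold, and 20 rose, 12 at least 2-fold, with a median of −0.71. Plxnb1, a semaphorin receptor, fell from 200.2, 194 and 201 to 8.02, 7.99 and 7.29 CPM (log2 change −4.68 ± 0.07, adjusted p = 4.48e-28), and Sema3a, a semaphorin that repels axons, from 64.7, 62.5 and 62.6 to 6.26, 7.57 and 9.73 CPM. Ntn1, a netrin that attracts or repels axons, rose from 8.49, 8.53 and 9.65 to 55.5, 53.8 and 51.6 CPM (2.59 ± 0.07). The groups did not overlap at any of these 3 genes. Among integrins, 13 of 22 fell and 9 rose: Itga10, the collagen receptor of cartilage, fell from 78.4, 80.9 and 81.5 to 22.2, 23.6 and 22.1 CPM, Itgb1, the common chain, rose 1.87-fold, and Itgb3, a chain of the vitronectin receptor, rose from 6.01, 5.55 and 5.33 to 48.2, 46.5 and 42.6 CPM.

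Many channel genes changed. Of 50 tested potassium and calcium channel genes 23 fell and 16 rose at least 2-fold, or 46% and 32%, beside 21.2% and 18.4% over all genes. Cacna1h, a T-type calcium channel, rose from 5.30, 6.998 and 3.76 to 205, 209 and 211 CPM (log2 change 5.27 ± 0.11, adjusted p = 3.41e-25), and Kcnma1, the large calcium-activated potassium channel, fell from 22.3, 20.2 and 20.2 to 3.89, 3.45 and 3.59 CPM. Mechanosensitive channels let chondrocytes feel load and swelling. Piezo2 fell from 82.5, 80.1 and 79.9 to 2.13, 1.57 and 2.28 CPM (−5.33 ± 0.14), while Piezo1 fell only 1.17-fold, from 318, 322 and 323 to 261, 280.2 and 285 CPM. Trpv4, the osmosensor, fell from 192, 199 and 199.8 to 80.6, 79.7 and 70.9 CPM. Of the volume-regulated anion channel subunits Lrrc8d rose from 23.1, 24.6 and 24.4 to 338, 324 and 309.8 CPM, Lrrc8c fell 3.19-fold, and the required subunit Lrrc8a did not pass the test (log2 change 0.02 ± 0.10).

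Gap junction genes went both ways. Gja1, connexin 43, rose from 227, 227 and 216 to 3349, 3405 and 3428 CPM (log2 change 3.93 ± 0.03, adjusted p = 1.24e-31), while Panx3, the pannexin of cartilage and bone, fell from 70.01, 74.9 and 75.6 to 1.46, 0.908 and 1.08 CPM (−5.99 ± 0.18) and Panx1 rose from 7.98, 7.59 and 6.91 to 30.7, 28.4 and 33.1 CPM. Of 10 tested connexins and pannexins 4 rose and 5 fell, all of them at least 2-fold. Hippo pathway genes stayed nearer to balance, with 14 of 30 rising and 12 falling and a median of 0.10 that became −0.04 with upper-quartile scaling. Yap1 had 95.6, 96.7 and 95.2 CPM in control and 97.2, 94.2 and 95.3 CPM with IL-1β, with overlapping groups. Its target Ccn2, a growth factor of cartilage, fell from 1776, 1816 and 1788 to 491, 472 and 461 CPM, while F3, tissue factor, rose from 7.07, 7.90 and 7.46 to 123, 123 and 121 CPM. Thbs1, thrombospondin 1, fell from 17194, 16979 and 16694 to 424, 433 and 492 CPM, a gene of no list here, named after its values were seen.

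Survival genes of the BCL2 family rose more often than they fell, and those that rose stood on both sides of the balance. Of 19 tested members 12 rose, 7 at least 2-fold, and 6 fell, 1 at least 2-fold. Their log2 changes ran from −4.455 to 4.019. The protectors Bcl2l1 and Mcl1 rose 2.09-fold and 1.94-fold, and the killers Bax, Bbc3 and Pmaip1 rose 1.73-fold, 2.18-fold and 3.52-fold. Bcl2 fell from 6.21, 5.69 and 6.30 to 4.62, 2.72 and 4.04 CPM. Enzymes that write and erase marks on histones and DNA changed in many members by small steps: 39 of 81 rose and 27 fell, but 12 and 6 by 2-fold, and the median of 0.11 became −0.03 with upper-quartile scaling. Kdm3a, a demethylase of histone H3 that responds to hypoxia, rose from 37.9, 38.3 and 37.02 to 256, 249.7 and 251 CPM (log2 change 2.74 ± 0.04, adjusted p = 3.63e-26). Uhrf1 and Dnmt1, which copy DNA methylation at replication, fell 8.16-fold and 2.83-fold.

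A pair of summaries of gene class, chosen after the table was seen, covered all genes. Of 82 tested genes in the homeobox family of the transcription factor column in the authors' table, 40 fell and 15 rose at least 2-fold. Their median was −0.98. Of 46 bZIP factors 18 rose and 9 fell at least 2-fold. Both families share members with lists above, such as Hoxa10 and Maff, so these counts are not separate from those. Tgif1, a homeobox repressor of TGF-β signalling, rose from 24.4, 21.9 and 22.4 to 397, 398 and 381 CPM against its family. The T-box factor Tbx3 rose from 3.33, 3.07 and 3.91 to 126, 117 and 119 CPM and the chromatin protein Hmga2 from 13.8, 12.01 and 11.3 to 120.0, 119.8 and 138 CPM. Of 1327 long noncoding RNAs 32% fell and 20.6% rose at least 2-fold, beside 20.7% and 17.9% of 13111 coding genes. The classes were not matched for level. Among genes of any class with a mean below 1 CPM, 31.9% fell and 26.5% rose at least 2-fold. From 1 to 10 CPM the shares were 32.2% and 18.2%, so the share of falls cannot be read as a trait of long noncoding RNAs. Dnm3os, the host RNA of a microRNA cluster that shapes the skeleton, fell from 46.98, 39.4 and 43.5 to 0.729, 1.15 and 1.14 CPM, and U90926, an RNA known from inflamed cells, rose from at most 0.253 CPM to 158, 154 and 149 CPM. Ptgs2os2, antisense to the gene of cyclooxygenase 2, went from 0 to 31.7, 32.5 and 33.1 CPM, but whether counting used strand is unstated, so its reads cannot be told apart from those of its partner.

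Genes often used as quantitative PCR references were not all steady. Of 28 tested, 17 rose, 7 at least 2-fold, and 6 fell, none 2-fold. Hprt, a purine salvage enzyme, rose from 77.6, 79.7 and 82.2 to 196, 202 and 207 CPM (log2 change 1.34 ± 0.04, adjusted p = 8.18e-20) and Pgk1, a glycolytic kinase, 3.11-fold. Gusb, a lysosomal enzyme, fell (log2 change −0.89 ± 0.06). Actb, β-actin, stood at 900.0, 921 and 910.5 CPM in control and 1034, 1000.9 and 961 CPM with IL-1β (log2 change 0.13 ± 0.04). Its rise was turned to −0.01 with upper-quartile scaling. Vcp and Rpl4 did not pass the test, with log2 changes of −0.05 ± 0.04 and −0.05 ± 0.04, but both fell with upper-quartile scaling, to −0.19 and −0.20. Gapdh had 14.2, 17.9 and 15.03 CPM in control and 415, 61.6 and 471 CPM with IL-1β, a log2 change of 4.33 ± 0.45, or 4.84 without IL-1β replicate 2. It is uncertain, since it has many processed copies that can share its reads. Calls for Tbp were lost without control replicate 2 (adjusted p = 0.123) or IL-1β replicate 1 (0.0516) or with upper-quartile scaling (0.457), and for Emc7 without control replicate 1 (0.0969) or 2 (0.0669). The call for Sdha, with a log2 change of −0.11, was lost without control replicate 1 (adjusted p = 0.079) or without any 1 IL-1β replicate (0.0955 to 0.113), without replicate 2 of IL-1β with SFRP5 (0.0623), and with RLE factors (0.0553), DESeq2 (0.0623) or no filter (0.123).

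**Figure D5:**
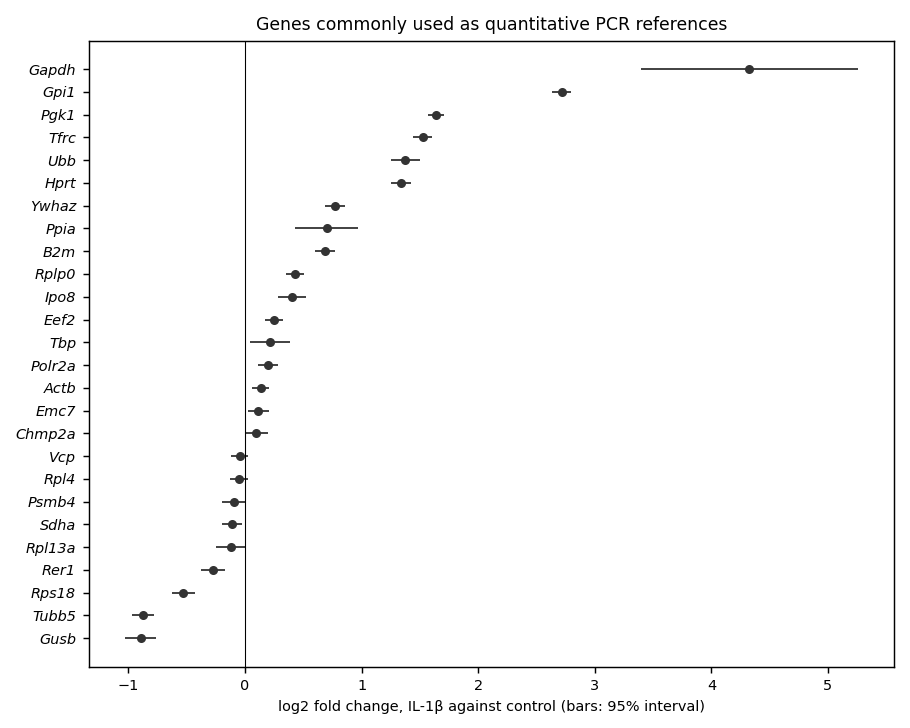
Log2 fold change of genes commonly used as references in quantitative PCR, with 95% intervals. Those from Vcp to Chmp2a lie near 0, and Gapdh and Gpi1 lie furthest from it.

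Some abundant genes were steady to a narrow margin. Of 1131 genes with at least 100 CPM in both groups, 157 had a 95% interval of the log2 change within 0.2 of 0. The 10 with the narrowest reach were Aebp1, Rpl23a, Tsc22d1, Mlf2, Rpn2, Hnrnpa2b1, Dync1h1, Nptn, Atrx and Bnip2. Aebp1, a collagen-binding protein, had 916, 899 and 921 CPM in control and 942, 932 and 869 CPM with IL-1β, with a log2 change of 0.00 and an interval of −0.07 to 0.08. These levels are relative to all counted RNA, and upper-quartile scaling moved the median gene by −0.15, so that Aebp1 read −0.14, and all 10 of these genes were called as lower under it.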

How the data were processed

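The deposited table holds gene counts for 9 libraries as the authors made them with RSEM after trimming with fastp and mapping with STAR to mm10, per the labels' protocols and the submitters' processing notes, which give no versions. The library kit marks strand, but whether the counting used strand is not stated. Counts were whole numbers and were used as deposited. Deposited counts were scaled by trimmed means (TMM), giving CPM, filtered by group with filterByExpr, and fitted over all 9 libraries with edgeR 4.0.16 in R 4.3.3 (quasi-likelihood test of IL-1β minus control, Benjamini-Hochberg adjusted, called under 0.05). A second call also asked for a log2 change of at least 1. Errors after ± are standard errors of the log2 change. Folds are ratios of group means of CPM, counted downward for genes that fell. The test was tried on simulated data with known changes. The totals bound the precision at low levels, and 29182 genes had no count.

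The members and lists were chosen with earlier results of these data known. Genes were named from those that moved most in a list (at least 10 CPM in the higher group), those against its direction, preset members, the 12 largest rises and falls, and the 10 steadiest. Genes named beyond that rule, after their values were seen, were Atp5g2, Atp5g3, Bhlhe41, Camp, Cd68, Cebpa, Cry1, Csf1r, Dlk1, Dnm3os, Dnmt1, Eef1a1, Fgf18, Fgf2, Fgf9, Fos, Gli2, Heph, Hmga2, Hmox1, Igf2, Ihh, Lox, Lrrc8a, Maf, Meg3, Meis2, Mertk, Mpc1, Mpc2, Mtf1, Notch2, Notch3, Nr1d2, Peg3, Plagl1, Plod2, Pmaip1, Psmb10, Ptgs2os2, Rbpj, Rpl24, S100a8, Smo, Tbx3, Tbx4, Tef, Tfe3, Tgif1, Thbs1, U90926 and Zim1. The untested C1qa, C1qb and C1qc were also named after their counts were seen. A few members of the lists are counted but not reported by name here. Coordinates in the table did not match the stated build, so none were used. Promoters and their coordinates came from RefSeq (GRCm38.p6). Alternatives were RLE and upper-quartile scaling, no filter, DESeq2 1.42.0, robust dispersions, a replicate block, the 6 compared libraries alone, each library left out, and a test against a 2-fold change.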

Additional observations from a re-analysis of the deposited data

How the results depend on the processing

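The counts of genes stayed within 1.5 times under each alternative run. With upper-quartile scaling 5186 genes rose and 7150 fell, with RLE factors 6087 and 6120, with no filter 6553 and 6757, with DESeq2 5941 and 5896, and with the 6 compared libraries alone 5850 and 6227. Leaving out each of the 9 libraries in turn gave 5853 to 6177 rises and 6072 to 6435 falls, of which 2912 to 2990 and 3338 to 3493 were at least 2-fold. A test against a 2-fold change called 2338 rises and 2560 falls. Of 417 named genes, 373 kept direction and call under all 16 settings, 17 lost the call under at least 1, 17 gained a call under at least 1 and 11 changed sign. All 11 did so with upper-quartile scaling, which moved the median gene by −0.147: Actb −0.014, Aebp1 −0.14, Bnip2 −0.15, Dync1h1 −0.13, Emc7 −0.035, Hnrnpa2b1 −0.14, Nptn −0.14, Rpl23a −0.14, Rpn2 −0.14, Trpm7 −0.12 and Tsc22d1 −0.13 on the log2 scale. Under it the genes newly called as lower included Atrx, Cacna1c, Dlk1, Dnmt3a, Dusp6, Egr1, Mlf2, Mthfd2, Psat1, Psmb4, Rpl13a, Rpl4, Vcp and Yap1, and the mechanosensitive list's median went from 0.02 to −0.12. With the replicate block, 5937 genes rose and 6214 fell; same-numbered libraries did not deviate together (r of −0.0364, −0.0184 and −0.00634), so the numbers were not taken as a pairing. Genes under about 1 CPM rest on few counts, and 3 libraries a group limit every test.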
